A study of Homo sapiens with 14 samples.

Results

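The 10 genes described here, ID1, ID2, ID3, SMAD6, SMAD7, INHA, INHBA, INHBB, BMP4 and BAMBI, belong to the bone morphogenetic protein (BMP) and activin branches of TGF-beta signalling. They were selected by gene symbol from 23106 gene rows, with their levels in each line and their changes in hypoxia already known, so each such value is given here as a description. Polyadenylated RNA was sequenced from PC3 cells, a line from a human prostate cancer, and from HCT116 cells, a line from a human colorectal cancer. Neither line is labelled as carrying an introduced genetic change. Both were kept in normoxia (21% O2) or for 16 h in hypoxia (0.5% O2), with 4 libraries per condition in PC3 and 3 in HCT116. Each tissue was represented by 1 line, and the lines were grown in different media, so line, tissue and medium cannot be told apart.

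BMPs and activins are secreted dimers that bring together type I and type II receptor kinases, which phosphorylate SMAD proteins that enter the nucleus with SMAD4. Activins are dimers of inhibin beta subunits, encoded by INHBA and INHBB, and an alpha subunit, encoded by INHA, pairs with a beta subunit to make an inhibin, which opposes activin. BMP signalling raises the transcription of the ID genes, whose proteins bind basic helix-loop-helix factors and keep them off DNA, and of the inhibitory SMADs, SMAD6 and SMAD7, which feed back on the receptors.

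In PC3, INHA was 4.60-fold and ID1 1.81-fold as high in hypoxia as in normoxia, and no other member of the 10 was called. A fit with the replicate number as a block also called INHBA lower and BAMBI higher there. In HCT116, where INHA and INHBA were near 0, SMAD7 was 1.92-fold and BAMBI 1.32-fold as high, and ID1 was almost level. In normoxia the lines held different members at high level. PC3 had the inhibin beta subunits, and HCT116 had BMP4 and all 3 ID genes. These folds are from edgeR's quasi-likelihood fit in each line, in which a gene is called at a Benjamini-Hochberg adjusted p under 0.05 over all genes tested. Levels are given in CPM, counts scaled to library size with TMM factors over the 14 libraries, and log2 fold changes (log2 FC) are hypoxia over normoxia with the standard error (SE).

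Totals per library were 98021966 to 123935458 counts in normoxic PC3, 71228454 to 96159803 in hypoxic PC3, 136931675 to 147934177 in normoxic HCT116 and 133067391 to 150630928 in hypoxic HCT116. The hypoxic PC3 libraries were the shallowest of all 14. A floor of 3 counts was 0.0201 to 0.0447 CPM, which covers counting error only. Hypoxia showed in every library through NDRG1, a hypoxia-induced gene, which was 276 to 426 CPM in normoxic and 1906 to 3409 CPM in hypoxic PC3, and 72.2 to 82.0 against 406 to 648 CPM in HCT116. The epithelial markers EPCAM, KRT8 and KRT18 were at least 273 CPM in every library. The fourth, CDH1, was 309 to 428 CPM in PC3 and 26.8 to 55.0 CPM in HCT116, and was higher in hypoxia in both lines (log2 FC 0.34 and 0.80, edgeR adjusted p = 0.0206 and 5.59e-05). Of the 5 colonic markers, CDX2 was 16.2 to 20.9 CPM in HCT116, while CDX1 was at 0 and VIL1, LGALS4 and GPA33 were at most 0.209 CPM. Of the prostate markers, HOXB13 was present in PC3 (61.9 to 92.9 CPM), KLK3 was at 0 and KLK2 was at most 0.0109 CPM. Of markers of other cell types, PTPRC of leukocytes was at most 0.795 CPM and CDH5 of endothelium at most 0.0328 CPM. PECAM1 reached 2.90 CPM in PC3, and COL1A1 reached 11.3 CPM in PC3 and 12.4 CPM in HCT116. Both PC3 libraries of replicate 1 stood apart from the others on the second principal component, which held 35.6% of the variance of the PC3 libraries.

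On GRCh37, the build of the counts, GENCODE places INHA on chromosome 2 at 220433884 to 220440433 (plus strand) and INHBB on the same chromosome at 121103712 to 121109379 (plus). INHBA lies on chromosome 7 at 41706766 to 41745432 (minus). BMP4 lies on chromosome 14 at 54416454 to 54425479 (minus) and BAMBI on chromosome 10 at 28966439 to 28971861 (plus). SMAD6 lies on chromosome 15 at 66994574 to 67075187 (plus) and SMAD7 on chromosome 18 at 46446223 to 46477335 (minus). ID1 lies on chromosome 20 at 30193086 to 30194318 (plus), ID2 on chromosome 2 at 8818975 to 8824591 (plus) and ID3 on chromosome 1 at 23884417 to 23885992 (minus). All 10 are protein-coding. Exons of ID2, INHBA and BMP4 overlap those of genes on the other strand. None of these is among the counted symbols, and the sources used here do not state whether counting used strand, so these 3 genes may hold reads from the other strand.

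The 4 members that were called in either line are shown with the 250 bases before their RefSeq transcription start, 5′ to 3′ on the strand of the gene, in coordinates of GRCh38.p14. Capitals mark the core of the hypoxia response element, ACGTG or GCGTG, on either strand. The windows are chr2:219572060-219572309 (plus) for INHA, chr20:31605039-31605288 (plus) for ID1, chr10:28677271-28677520 (plus) for BAMBI and chr18:48950966-48951215 (minus) for the most upstream of the 3 starts of SMAD7.
INHA: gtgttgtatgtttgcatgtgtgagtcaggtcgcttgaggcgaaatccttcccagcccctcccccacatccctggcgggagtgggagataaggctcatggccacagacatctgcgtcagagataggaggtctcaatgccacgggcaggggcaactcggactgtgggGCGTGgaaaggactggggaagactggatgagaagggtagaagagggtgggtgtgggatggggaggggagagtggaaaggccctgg
ID1: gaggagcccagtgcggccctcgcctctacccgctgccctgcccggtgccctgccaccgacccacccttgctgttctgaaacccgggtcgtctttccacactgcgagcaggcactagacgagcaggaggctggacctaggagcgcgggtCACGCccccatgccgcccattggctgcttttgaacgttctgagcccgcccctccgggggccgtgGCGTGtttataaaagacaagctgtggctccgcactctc
BAMBI: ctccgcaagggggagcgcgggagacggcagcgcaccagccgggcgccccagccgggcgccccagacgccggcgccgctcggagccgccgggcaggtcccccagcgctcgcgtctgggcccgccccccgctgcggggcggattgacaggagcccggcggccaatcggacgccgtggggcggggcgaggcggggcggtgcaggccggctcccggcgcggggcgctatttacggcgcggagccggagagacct
SMAD7: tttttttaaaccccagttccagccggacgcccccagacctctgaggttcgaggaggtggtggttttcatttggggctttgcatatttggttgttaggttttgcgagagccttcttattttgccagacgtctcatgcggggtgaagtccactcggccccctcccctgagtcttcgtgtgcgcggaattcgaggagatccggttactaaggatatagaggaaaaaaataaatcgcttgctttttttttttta
The INHA window held 1 match, which began 85 bases before the start, and the ID1 window held 2, at 102 and 38 bases before it. The BAMBI window and this SMAD7 window held none, and the second SMAD7 start held 2. Of all 35116 promoter windows of this length, 43.2% held at least 1 such match, and so did 8 of the 14 windows of the members, which belong to 7 of the 10 genes. ID2, ID3 and SMAD6, which were called in neither line, were among the 7. GGCGCC, a GC-rich box known to bind BMP SMADs, was found 3 times in the BAMBI window, and 16.4% of all windows held it. The INHBB window held 2 such boxes and the window of the first BMP4 start held 1, and these genes were called in neither line. The palindrome GTCTAGAC, a SMAD-binding element, was found in the SMAD6 window alone among those of the members, 12 bases before the start, and 0.182% of all windows held it. A match is a description of letters and does not show binding.

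The inhibin subunits marked the widest gap between the lines. INHA was at 1.06, 0.843, 0.785 and 0.919 CPM in normoxic PC3 replicates 1 to 4 and at 3.08, 4.24, 3.57 and 5.72 CPM in hypoxia. The conditions did not overlap, and the lowest hypoxic library was 2.91 times the highest normoxic one, both of replicate 1. The log2 FC was 2.20 (SE 0.209, n = 4 and 4, edgeR adjusted p = 4.36e-04). Within replicate numbers hypoxia over normoxia was 2.91, 5.03, 4.54 and 6.22, so all 4 numbers moved the same way and by unequal amounts. Without both libraries of replicate 1 the log2 FC was 2.41. INHA was counted by 81 to 384 reads per PC3 library, and it was one of the 2 members called in PC3. In bulk libraries such as these, a share of cells expressing a gene and its RNA per cell cannot be told apart.

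Beside those 2, both higher in hypoxia, 6.03% of the 14309 genes tested in PC3 were called higher and 5.29% lower, and nothing is read from the comparison since the members were chosen with this contrast known. The split of called genes moved with the scaling, to 681 higher and 1048 lower with upper-quartile scaling and to 562 higher and 1733 lower with total-count scaling, from 863 and 757 with TMM, and total-count scaling shifted the median log2 FC of all genes to -0.10. The median log2 FC was 0.17 over the 10 members and 0.00 over all genes tested. The normoxic and hypoxic PC3 libraries of the same replicate number deviated together, and a fit with that number as a block called 4 members, ID1, INHA and BAMBI higher and INHBA lower. That fit called 14.9% of all genes higher and 13.6% lower.

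INHBA encodes the beta A subunit of activin A. It was at 249, 228, 233 and 212 CPM in normoxic PC3 and at 188, 175, 206 and 155 CPM in hypoxia. All 4 hypoxic libraries lay below all 4 normoxic ones, by a small margin between 206 and 212 CPM. Its log2 FC was -0.34 (SE 0.0986, edgeR adjusted p = 0.0535), which did not pass the threshold, and it did so with the replicate block (log2 FC -0.35, adjusted p = 0.00599). It passed as well with DESeq2, upper-quartile or total-count scaling, one fit over both lines, and without hypoxic replicate 3.

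INHBB, the beta B subunit of activin B, was the most abundant member in PC3. It was at 402, 369.8, 396 and 356 CPM in normoxia and at 417, 423, 432 and 393 CPM in hypoxia. The conditions overlapped, and the log2 FC of 0.13 (SE 0.0720, edgeR adjusted p = 0.271) did not pass the threshold. The 95% interval of that difference ran from -0.03 to 0.29.

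Transcript levels of different genes were compared per kilobase of the canonical GENCODE transcript, as CPM per kb. Counts were made per RefSeq gene, so levels between genes depend on these lengths, which were not checked against the RefSeq models. In normoxic PC3, INHBB stood at 119 ± 6.80 CPM per kb (SD, n = 4), INHBA at 38.1 ± 2.52 and INHA at 0.667 ± 0.0867. On this scale, transcripts of INHBA were 51.4 to 66.3 times those of INHA in normoxic libraries and 6.07 to 13.6 times in hypoxic ones. The 2 ranges lay far apart, and INHA was still the rarest subunit in every hypoxic library. INHBB over INHA was 161 to 213 in normoxia and 28.9 to 57.2 in hypoxia. INHBB over INHBA was 3.05 to 3.21 in normoxia and 3.95 to 4.76 in hypoxia, again without overlap. INHA transcripts were 0.424% ± 0.0523 of those of the 3 subunits in normoxia and 1.91% ± 0.621 in hypoxia (SD, n = 4 each). These ratios come from the same libraries and contrast that chose the members and carry no test.

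**Figure D1:**
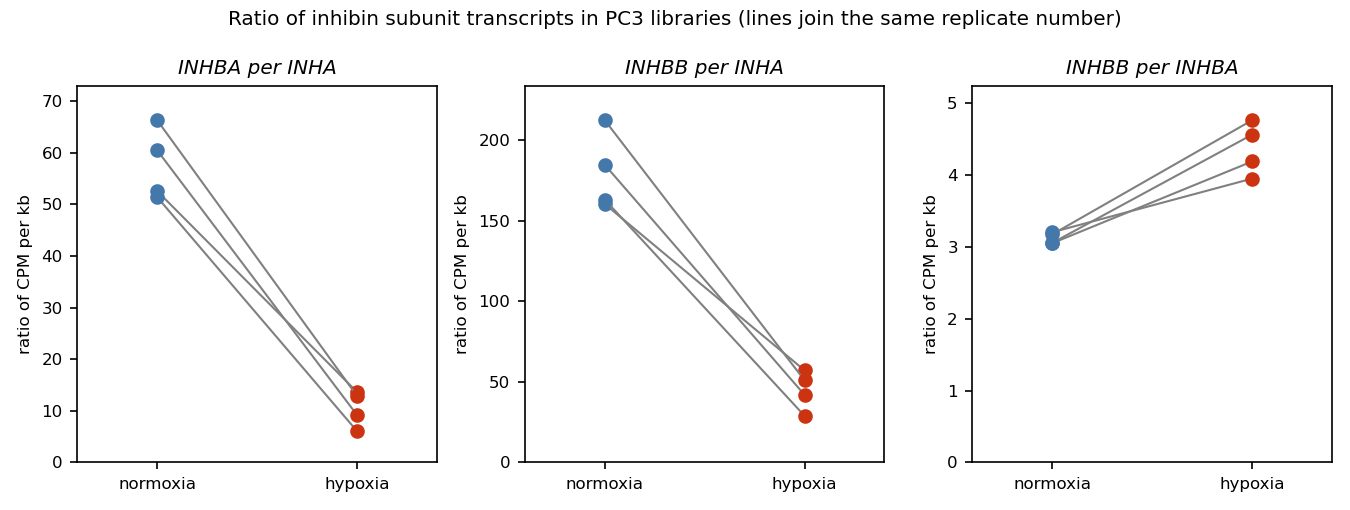
Ratio of inhibin subunit transcripts in CPM per kb (y axes, linear, starting at 0) in the 4 normoxic and 4 hypoxic PC3 libraries, each point being 1 library and each line joining libraries of the same replicate number. INHBA per INHA and INHBB per INHA were lower in all 4 hypoxic libraries, and INHBB per INHBA was higher in all 4.

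HCT116 held almost none of the 3 subunits. INHA had 1, 0 and 0 counts in normoxic replicates 1 to 3 and 1, 0 and 0 in hypoxic ones, at or under the floor in both conditions. INHBA had 2, 0 and 1 counts in normoxia and 7, 2 and 3 in hypoxia. Summed over the libraries this was 3 against 12 counts, a ratio of 4.15 with an exact 95% counting interval of 1.12 to 22.9 that takes in counting error only. Neither gene passed the filter on low counts in HCT116, so no test was made. INHBB was at 0.462, 0.553 and 0.747 CPM in normoxia and at 0.678, 0.691 and 1.02 CPM in hypoxia. These overlapped, and the log2 FC was 0.45 (SE 0.254, edgeR adjusted p = 0.215).

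BMP4 is a secreted ligand of the BMP branch. It was at 35.6, 33.1, 35.1 and 28.0 CPM in normoxic PC3 and at 33.4, 31.0, 31.3 and 24.97 CPM in hypoxia. In HCT116 it was at 129, 115 and 137 CPM in normoxia and at 116, 101 and 122 CPM in hypoxia. The conditions overlapped in both lines. BMP4 had a log2 FC of -0.12 (SE 0.113, edgeR adjusted p = 0.528) in PC3 and -0.15 (SE 0.0861, adjusted p = 0.219) in HCT116. Within each PC3 replicate number, hypoxia over normoxia was 0.890 to 0.938.

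BAMBI is a transmembrane pseudoreceptor that lacks the kinase domain and dampens BMP and TGF-beta receptors. In normoxic PC3 it was at 11.3, 8.44, 8.02 and 8.18 CPM and in hypoxic PC3 at 17.7, 9.91, 9.12 and 9.09 CPM. Replicate 1 was the highest library in both conditions, and the conditions overlapped. This gave a log2 FC of 0.36 (SE 0.233, edgeR adjusted p = 0.357), and 0.31 (adjusted p = 0.0462) with the replicate block. Without both libraries of replicate 1 the log2 FC fell to 0.19 (adjusted p = 0.148).

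In HCT116 BAMBI was at 5.13, 4.84 and 5.47 CPM in normoxia and at 6.84, 6.29 and 7.06 CPM in hypoxia. The conditions did not overlap, and the log2 FC was 0.40 (SE 0.0963, edgeR adjusted p = 0.0110). The adjusted p was 0.0532 without normoxic replicate 2 and 0.278 in one fit over both lines. BAMBI and SMAD7 were the 2 members called in HCT116, both higher, of 8 that could be tested. In that line 14.6% of the 14120 genes tested were called higher and 11.3% lower, which is printed beside the count and not read against it, and total-count scaling turned the split from 2061 higher and 1597 lower to 1286 and 3146. The median log2 FC was 0.19 over these 8 and 0.00 over all genes tested.

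**Figure D2:**
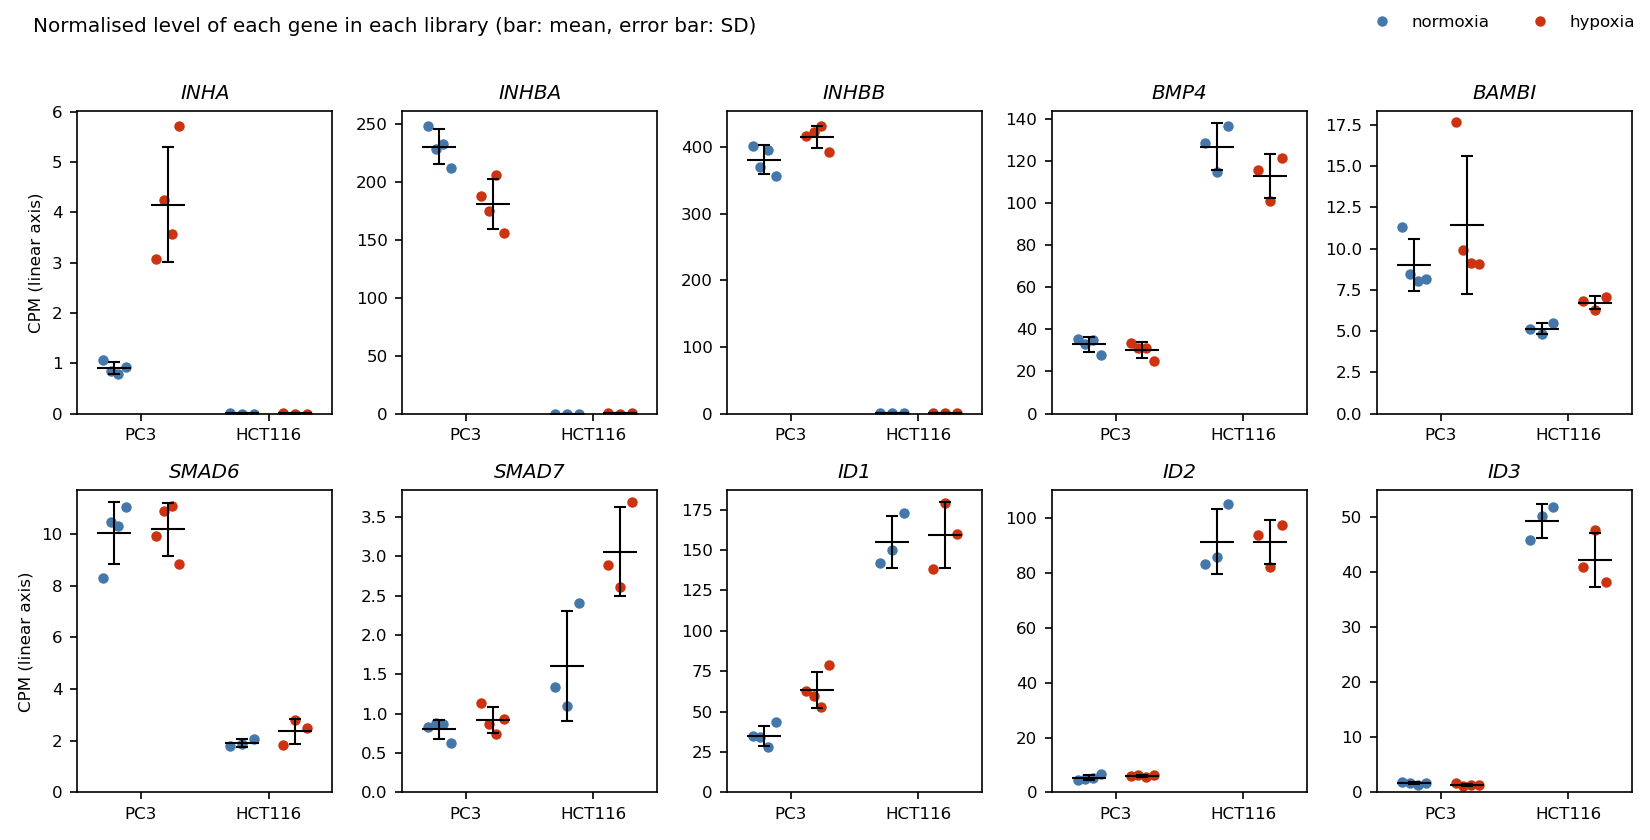
CPM (y axes, linear, a scale for each gene) of each member in each library, in normoxia (blue) and hypoxia (red), with PC3 on the left and HCT116 on the right of each panel. Bars are means and error bars SDs of 4 (PC3) or 3 (HCT116) libraries. INHA and ID1 separate by condition in PC3, and SMAD7 and BAMBI in HCT116, while INHA, INHBA and INHBB lie near the axis in HCT116. INHBA, which was not called, also separates in PC3, lower in hypoxia and by a small margin.

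SMAD7, an inhibitory SMAD which recruits ubiquitin ligases to type I receptors, was at 0.830, 0.881, 0.873 and 0.621 CPM in normoxic PC3 and at 1.14, 0.867, 0.744 and 0.938 CPM in hypoxia. These overlapped, with a log2 FC of 0.21 (SE 0.203, edgeR adjusted p = 0.548). In HCT116 it was at 1.33, 1.09 and 2.404 CPM in normoxia and at 2.89, 2.60 and 3.69 CPM in hypoxia. The conditions did not overlap, but normoxic replicate 3 was close to hypoxic replicate 2. SMAD7 had a log2 FC of 0.94 (SE 0.255, edgeR adjusted p = 0.0197), on 154 to 468 counts per library.

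The SMAD7 call in HCT116 was lost without normoxic replicate 1, without normoxic replicate 2 and without hypoxic replicate 3. The log2 FC ran from 0.72 to 1.34 and the adjusted p from 1.39e-04 to 0.0895 as each library was left out. Without normoxic replicate 2 neither BAMBI nor SMAD7 was called, so 0 of the 8 members were.

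SMAD6, the inhibitory SMAD that acts mostly on the BMP branch, was at 8.30, 10.5, 10.3 and 11.04 CPM in normoxic PC3 and at 9.93, 10.9, 11.1 and 8.82 CPM in hypoxia. In HCT116 it was at 1.80, 1.86 and 2.07 CPM in normoxia and at 1.83, 2.79 and 2.48 CPM in hypoxia. The conditions overlapped in both lines, and hypoxic replicate 1 of HCT116 lay among the normoxic libraries. The log2 FC was 0.03 (SE 0.109, edgeR adjusted p = 0.896) in PC3, where upper-quartile and total-count scaling turned its sign, and 0.32 (SE 0.165, adjusted p = 0.173) in HCT116, where it was called without hypoxic replicate 1 (adjusted p = 0.0458).

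ID1 was the only one of the 3 ID genes called in either line. It was at 35.1, 34.1, 28.1 and 43.3 CPM in normoxic PC3 and at 62.6, 59.4, 52.9 and 79.0 CPM in hypoxia. The conditions did not overlap, and replicate 3 was the lowest and replicate 4 the highest library in each. The log2 FC was 0.86 (SE 0.149, edgeR adjusted p = 0.00822). Within replicate numbers hypoxia over normoxia was 1.78, 1.74, 1.88 and 1.82, nearly the same in all 4. The call held as each PC3 library was left out in turn, with a log2 FC of 0.74 to 0.97.

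In HCT116 ID1 was at 142, 150.03 and 173 CPM in normoxia and at 138, 179 and 160.1 CPM in hypoxia. The conditions overlapped throughout. The log2 FC was 0.05 (SE 0.0999, edgeR adjusted p = 0.730), with a 95% interval of -0.17 to 0.27, and total-count scaling turned its sign.

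ID2 and ID3 were called in neither line. ID2 was at 4.69, 4.75, 5.22 and 6.78 CPM in normoxic PC3 and at 5.95, 6.42, 5.74 and 6.49 CPM in hypoxia (log2 FC 0.20, SE 0.127, edgeR adjusted p = 0.335). In HCT116 it was at 83.1, 85.9 and 105 CPM in normoxia and at 93.9, 82.1 and 97.3 CPM in hypoxia (log2 FC 0.01, SE 0.0981, adjusted p = 0.947). The conditions overlapped in both lines, and total-count scaling and one fit over both lines turned the sign in HCT116. ID3 was at 1.89, 1.63, 1.42 and 1.69 CPM in normoxic PC3 and at 1.66, 1.23, 1.28 and 1.43 CPM in hypoxia. In HCT116 ID3 was at 45.7, 50.1 and 51.7 CPM in normoxia and at 40.8, 47.5 and 38.1 CPM in hypoxia. The ID3 values overlapped in both lines, with a log2 FC of -0.24 (SE 0.166, edgeR adjusted p = 0.392) in PC3 and -0.20 (SE 0.0891, adjusted p = 0.114) in HCT116. ID3 was called lower in HCT116 without hypoxic replicate 2 (adjusted p = 0.0320) and, with BMP4, under total-count scaling.

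**Figure D3:**
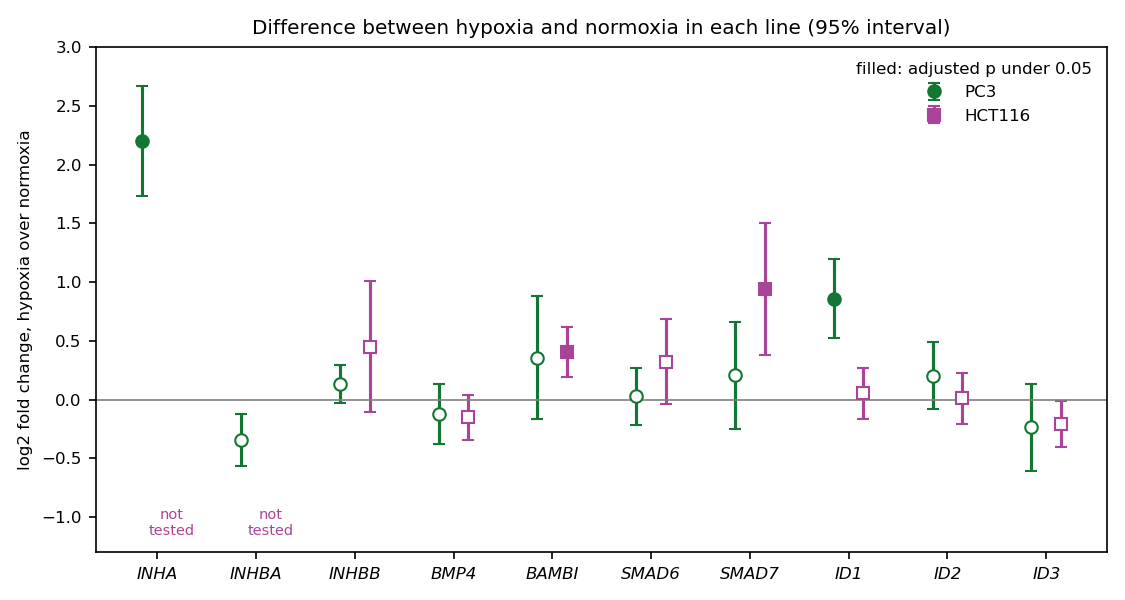
Log2 fold change of hypoxia over normoxia (y axis) of each member in PC3 (green circles) and HCT116 (purple squares) with the 95% interval of the edgeR fit, filled where the adjusted p was under 0.05. INHA at 2.20 and ID1 at 0.86 are filled in PC3, SMAD7 at 0.94 and BAMBI at 0.40 in HCT116, where INHA and INHBA were not tested.

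The difference in response between the lines was tested as the interaction of line and oxygen over all 14 libraries, where 2.32% of 15493 genes were called. None of the 10 members was called with edgeR, of which INHA and INHBA passed the filter through PC3 alone and give no usable difference. At an unadjusted p under 0.05, ID1 and INHBA passed, and DESeq2 called ID1. For ID1 the log2 FC in PC3 minus that in HCT116 was 0.81 (95% interval 0.37 to 1.26, edgeR adjusted p = 0.0550). The call of ID1 was made with DESeq2 (adjusted p = 0.00564), with at least 10 counts in every library (0.0439), with the replicate block (5.01e-04) and without PC3 hypoxic replicate 3 or PC3 normoxic replicate 4. The same difference was -0.72 (95% interval -1.50 to 0.05, adjusted p = 0.347) for SMAD7 and -0.04 (95% interval -0.65 to 0.57, adjusted p = 0.995) for BAMBI. Both intervals include 0 and are wide, so the calls of SMAD7 and BAMBI in HCT116 alone do not show a difference between the lines, nor its absence.

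All 10 members were called different in normoxic level between the lines, as were 81.3% of the 15493 genes tested, which is a share of most genes. SMAD6, INHA, INHBA, INHBB and BAMBI were higher in PC3, and ID1, ID2, ID3, SMAD7 and BMP4 were higher in HCT116. INHBB was 651-fold as high in PC3, the widest gap among the members with counts well above the floor in both lines. For INHA, with 428 counts in normoxic PC3 against 1 in HCT116, the ratio per library depth was 383 (exact 95% counting interval 68.4 to 15178), and for INHBA, with 109000 against 3 counts, it was 32545 (11136 to 157817). These 2 had to differ, since they passed the filter only through PC3. SMAD6 was 5.24-fold and BAMBI 1.75-fold as high in PC3.

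In the other direction ID3 was at 1.66 ± 0.197 CPM in normoxic PC3 (SD, n = 4) and at 49.2 ± 3.09 in HCT116 (n = 3), a log2 difference of -4.89 (SE 0.122, edgeR adjusted p = 2.22e-14). ID2 differed by -4.09 (SE 0.129), ID1 by -2.14 (SE 0.148), BMP4 by -1.94 (SE 0.109) and SMAD7 by -1.005 (SE 0.254) on the log2 scale, each PC3 minus HCT116. The difference of SMAD7 was -0.60 without HCT116 normoxic replicate 3, its highest normoxic library. The gap of ID1 was the smallest of the 3 ID genes. Hypoxic PC3 libraries reached at most 79.0 CPM of ID1, below the lowest HCT116 library at 138 CPM.

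Per kilobase, the order of levels in normoxic PC3 was INHBB, INHBA, ID1, BMP4, BAMBI, ID2, SMAD6, ID3, INHA and SMAD7, from 119 down to 0.240 CPM per kb. INHBA and ID1 overlapped in their ranges, as did BAMBI and ID2, and the other neighbours did not. In hypoxic PC3 ID1, at 64.6 ± 11.3 CPM per kb, stood above INHBA at 29.9 ± 3.52 without overlap (SD, n = 4), and INHA had moved up to the seventh place, overlapping SMAD6. In normoxic HCT116 the order was ID1 at 158 ± 16.2 CPM per kb, ID2 at 70.4 ± 9.21, BMP4 at 65.6 ± 5.83, ID3 at 51.7 ± 3.25, BAMBI at 3.04 ± 0.187, SMAD6 at 0.499 ± 0.0364, SMAD7 at 0.482 ± 0.209 and INHBB at 0.183 ± 0.0453 (SD, n = 3). ID2 and BMP4 overlapped, as did SMAD6 and SMAD7. In hypoxic HCT116 SMAD7, at 0.916 ± 0.168 CPM per kb, stood above SMAD6 at 0.619 ± 0.128 without overlap.

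**Figure D4:**
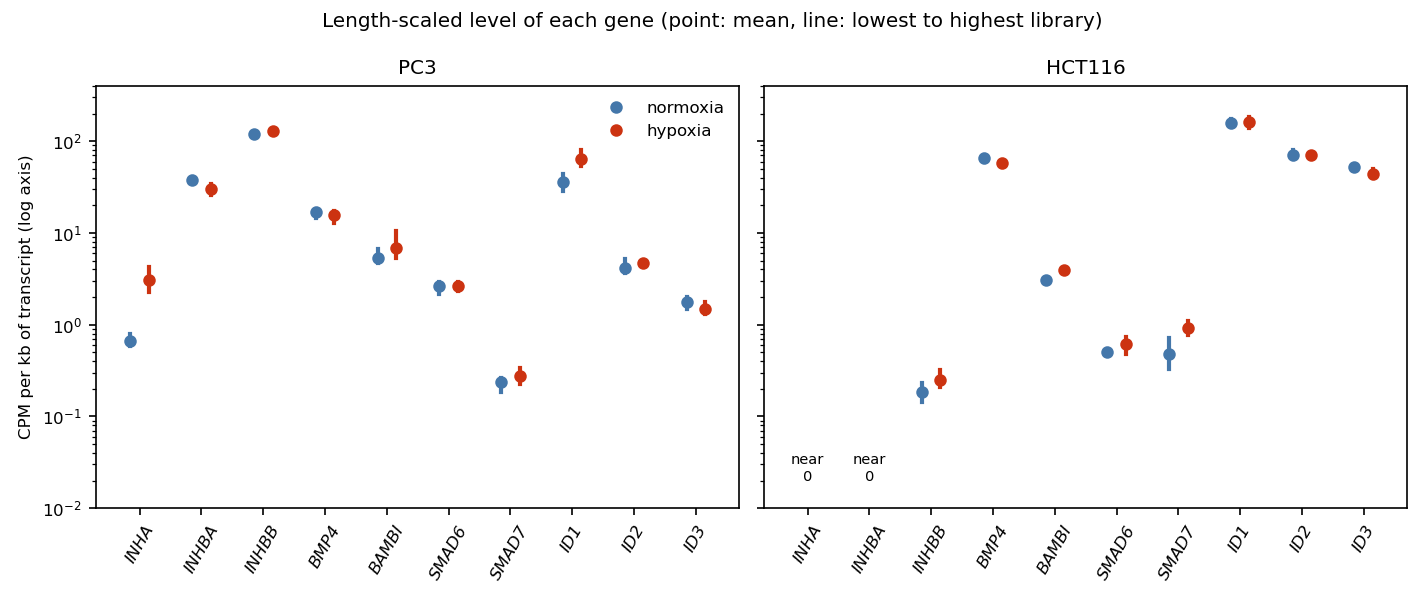
CPM per kb of the canonical transcript (y axis, log scale) of each member in PC3 (left, n = 4) and HCT116 (right, n = 3), points being means and lines running from the lowest to the highest library. The inhibin beta subunits stand high in PC3, INHBB at 119 in normoxia, and BMP4 and the ID genes in HCT116, ID1 at 158, where INHA and INHBA were near 0 and are not drawn.

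The genes whose log2 CPM ran most like that of ID1 over the 14 libraries, after the mean of each line was subtracted, were TOB1 (Pearson's r = 0.974), LARP6 (0.950), UBAP1 (0.939), TSC22D4 (0.938) and KIAA1522 (0.937), among 11198 genes compared. Genes that ran much like INHA included ADAT3 (0.945), RTN4RL2 (0.943), PFKFB3 (0.933) and ITPR1 (0.929). In HCT116, INHA had 1 count in each of 2 libraries and 0 in the others, so its likeness rests on the 8 PC3 libraries. The libraries share their oxygen condition and, in PC3, their replicate number, and the values are a description.

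A list of 89 other genes of the pathway was set beside the members. In PC3, 69 were tested, 10 were called higher, 1 lower and 58 neither, with a median log2 FC of 0.11. Over all genes tested in PC3, 6.03% were called higher and 5.29% lower, with a median of 0.00. In HCT116 62 were tested, 11 were called higher, 2 lower and 49 neither, with a median of 0.09, beside 14.6% of all genes higher and 11.3% lower and a median of 0.00. With the replicate block the PC3 counts were 26 higher and 7 lower, beside 14.9% and 13.6% of all genes. As each library was left out, the PC3 count ran from 6 to 14. It was 6 without normoxic replicate 3 and 7 without normoxic or hypoxic replicate 2. The HCT116 count was 8 without normoxic or hypoxic replicate 2. Of the called genes named next, some lost the call when single libraries were left out. In PC3, SMAD4 and NBL1 held it in 2 of 8 such fits, HEY1 in 5, LTBP2 in 6, and PDGFB and BMPR1B in 7. In HCT116, NBL1 held it in 0 of 6, SMAD4 and LTBP2 in 1, and BMPR1A and MSX1 in 3. PDGFB in HCT116 lost it without normoxic replicate 2. One fit over both lines lost the HCT116 calls of GDF15, SMAD4, FSTL3, NBL1, MSX1, CDKN2B and PDGFB.

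Among the SMADs that carry the signal, SMAD9, a receptor SMAD of the BMP branch, rose in both lines. It went from 0.993 ± 0.184 to 2.045 ± 0.384 CPM in PC3 (SD, n = 4, log2 FC 1.04, edgeR adjusted p = 0.0119) and from 2.21 ± 0.233 to 5.57 ± 0.316 CPM in HCT116 (n = 3, log2 FC 1.35, adjusted p = 1.55e-05). SMAD4, the partner of all receptor SMADs, rose by a log2 FC of 0.31 in PC3 (adjusted p = 0.0426) and 0.21 in HCT116 (adjusted p = 0.0372), calls that upper-quartile and total-count scaling removed. SMAD3, a receptor SMAD of the TGF-beta and activin branch, rose in PC3 (log2 FC 0.36, adjusted p = 0.00730). In all 3 of 6 such SMADs were called higher in PC3 and 2 of 6 in HCT116.

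Of the receptors, BMPR2, the type II receptor of BMPs, rose in PC3 (log2 FC 0.50, edgeR adjusted p = 0.00457) and BMPR1B, a type I receptor, fell (log2 FC -0.63, adjusted p = 0.0138). In HCT116, ACVR2B, a type II receptor of activins, and TGFBR1, the type I receptor of TGF-beta, rose by a log2 FC of 0.51 and 0.42, and BMPR1A fell by 0.23 on the log2 scale (edgeR adjusted p = 0.00150, 0.00348 and 0.0261). Of the 13 ligands tested in each line, TGFB1 was called in PC3 (log2 FC 0.69, adjusted p = 0.00372) and GDF15, a stress-induced ligand, in HCT116 (log2 FC 0.87, adjusted p = 0.00285).

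Among secreted antagonists, NOG, which binds BMPs and blocks their receptors, rose in PC3 from 34.7 ± 7.48 to 79.3 ± 19.0 CPM (SD, n = 4, log2 FC 1.20, edgeR adjusted p = 0.00627), and was at most 0.118 CPM in HCT116. NBL1 was called in both lines (log2 FC 0.29 and 0.19), and FSTL3, which binds activins, in HCT116 (log2 FC 0.33, adjusted p = 0.00301). The NBL1 call was lost under upper-quartile and total-count scaling in both lines. None of the 9 intracellular regulators and none of the 4 genes of the ID4 and basic helix-loop-helix list was called in either line by edgeR. In HCT116, ID4 and TCF4 did not pass the filter on low counts and were not tested. An unadjusted p under 0.05 was found for 3 of the 13 tested in PC3 and for 0 in HCT116. In PC3, DESeq2 called SKI and TCF4, and the replicate block called SKI, SKIL, PMEPA1, TGIF2, TCF3 and TCF4.

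Of the other BMP target genes, 4 were tested in each line. HEY1 was called higher in PC3 (log2 FC 0.62, edgeR adjusted p = 0.0237), MSX1 lower in HCT116 (log2 FC -0.28, adjusted p = 0.0412), and the other 3 tested in each line were not called. Of the 7 TGF-beta and activin targets, PDGFB (log2 FC 0.86, adjusted p = 0.0129) and LTBP2 (log2 FC 0.39, adjusted p = 0.0119) rose in PC3. THBS1 was at 2689 ± 558 CPM in normoxic and 1729 ± 486 CPM in hypoxic PC3 (SD, n = 4, log2 FC -0.63, edgeR adjusted p = 0.0953). It was not called there, and was called lower with DESeq2 and with the replicate block (adjusted p = 0.00194). CDKN2B, LTBP2 and PDGFB rose in HCT116, with log2 FCs of 0.62, 0.46 and 0.41. CDKN2B, an inhibitor of cyclin-dependent kinases, was at 25.3 ± 6.70 CPM in normoxic and 35.5 ± 5.90 CPM in hypoxic PC3 (SD, n = 4), and was called there only with the replicate block among the fits over all PC3 libraries.

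**Figure D5:**
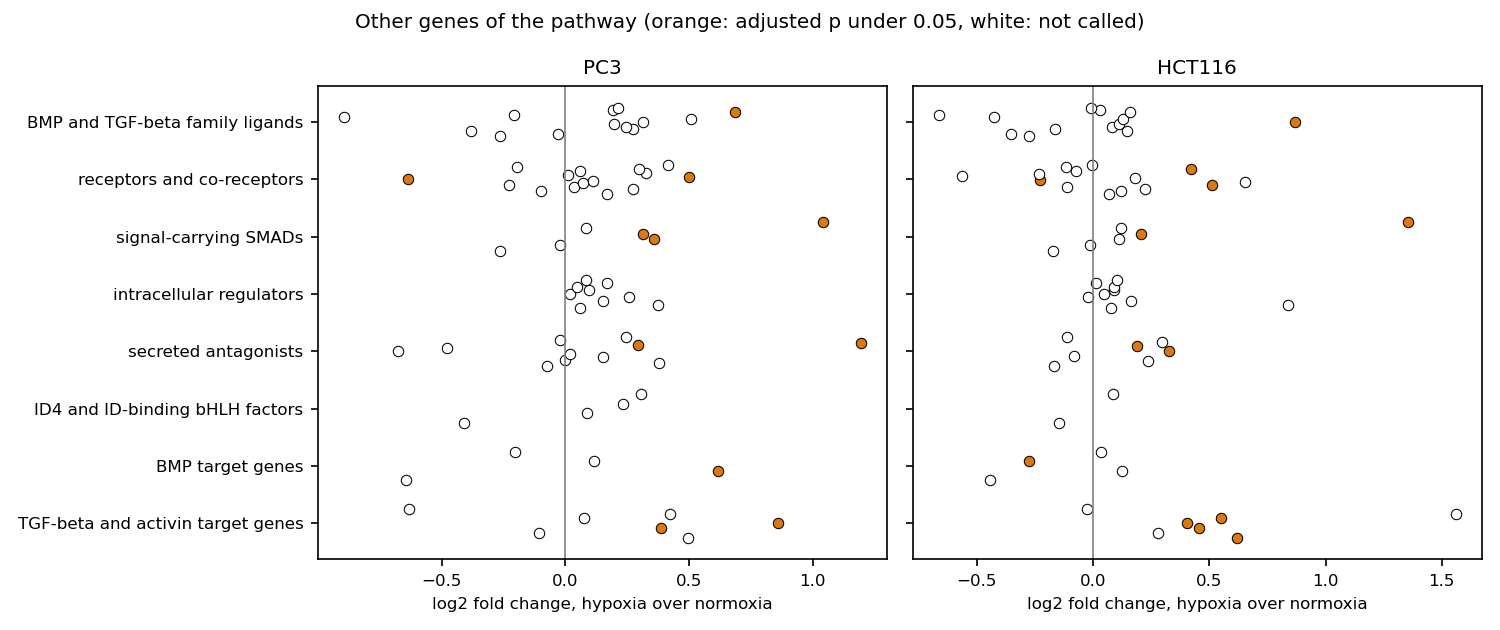
Log2 fold change of hypoxia over normoxia (x axes) of the other pathway genes that could be tested in PC3 (left) and HCT116 (right), 1 point per gene in rows by role, orange where the adjusted p was under 0.05. SMAD9 stands to the right in both lines at 1.04 and 1.35, and no intracellular regulator is orange in either.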

How the data were processed

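Polyadenylated RNA of PC3 and HCT116 cells was sequenced in 14 libraries, described as biological replicates. The authors aligned reads to the ERCC spike-in and, after removing those, to GRCh37 with HISAT2 (2.05), and deposited unnormalised counts of reads per RefSeq gene made with HTSeq (0.5.4p3). The RefSeq release and the strand setting are not given in the sources used here. ChIP-seq data and ERCC reads are not analysed here, so all values are relative to the bulk of transcripts.

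Each line was fitted apart with edgeR 4.0.16 (R 4.3.3: filterByExpr, TMM, quasi-likelihood test, Benjamini-Hochberg adjustment over all genes tested, threshold 0.05), and both lines together (15493 genes) for differences between them. Genes are called, as rising or falling, by that adjusted p. The fits were tested on simulated data. Counts gave precision of 3 counts at 0.0201 to 0.0447 CPM, and chi-squares per gene of 12.1 to 257 between replicates exceeded counting error in every pair, so no pair was merged as a repeat deposit.

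PC3 libraries with the same replicate number deviated together (correlations across genes of 0.677, 0.269, 0.144 and 0.287), so blocked values are given where they change a call.

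The members, the lists and the alternatives were chosen with earlier results of these data known. All 10 members are named. In each pathway list and line, up to 3 called genes with the largest log2 fold change and at least 1 CPM are named. PDGFB in HCT116 and THBS1 in PC3 were added after their values were seen. Some genes that the rule names are not reported here. Alternatives were other scalings, DESeq2 1.42.0, filters, the block, one fit over both lines and each library left out. Levels per kb use the canonical transcript of GENCODE v44lift37, and promoters come from RefSeq (GRCh38.p14), matched by symbol for all 10.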

Additional observations from a re-analysis of the deposited data

Results flagged for a closer look

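In PC3, 42 groups of 4 libraries were examined for a value far from the other 3, of which 5 were found, against 2.1 that chance would give at this limit. BAMBI stood out in replicate 1 of both conditions, at 11.3 CPM against 8.02 to 8.44 CPM in the other normoxic libraries and at 17.7 CPM against 9.09 to 9.91 CPM in the other hypoxic ones. BMPR1B was at 8.997 CPM and NOG at 107.6 CPM in hypoxic replicate 1, where the others held 6.69 to 7.06 CPM and 66.5 to 72.4 CPM. Both PC3 libraries of replicate 1 also stood apart on the second principal component, and the part of this in the values was not tested. HEY1 was at 12.1 CPM in normoxic replicate 4 against 8.49 to 9.10 CPM in the others.

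The response to hypoxia differed between the lines, by the interaction test of edgeR, for 2 of the other pathway genes named. For TGFB1 the log2 FC in PC3 minus that in HCT116 was 0.54 (SE 0.133, adjusted p = 0.0458), with 0.69 in PC3 and 0.16 in HCT116. It was called under 9 of 22 alternatives. For ACVR2B the difference was -0.73 (SE 0.152, adjusted p = 0.0215), with -0.23 in PC3 and 0.51 in HCT116, and it was called under 19 of 22.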

How the results depend on the processing

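The counts of called members in PC3 (2) and in the normoxic comparison (10) stayed within 1.5 times their value under every alternative run, except that the replicate block gave 4 in PC3. Total-count scaling gave 4 members in HCT116, adding ID3 and BMP4 as lower, and one fit over both lines gave 1 member and 6 pathway genes there. The PC3 pathway count was 18 with DESeq2 and 33 with the replicate block. Members with a called difference in response were 1 with DESeq2, 1 with at least 10 counts in every library, and 2 with the replicate block, of which INHBA gives no usable difference, having passed the filter through PC3 alone. As each library was left out, counts ran from 6 to 14 for PC3 pathway genes, 0 to 3 for HCT116 members, 8 to 13 for HCT116 pathway genes and 0 to 1 for the response. The causes were not tested.

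Reversed signs were all of uncalled values near 0. SMAD6 in PC3 was -0.015 with upper-quartile scaling, -0.075 with total-count scaling and -0.042 without both libraries of replicate 1, the latter chosen after seeing the data. With total-count scaling ID1 and ID2 in HCT116 were -0.036 and -0.077, and ID2 was -0.0043 in one fit over both lines. The response difference of BMP4 was -0.0034 with upper-quartile scaling. With each library left out, values ran from -0.046 to 0.095 for SMAD6 in PC3, -0.040 to 0.14 and -0.065 to 0.12 for ID1 and ID2 in HCT116, and, for the response differences, -0.12 to 0.077 for ID3, -0.33 to 0.094 for BAMBI and -0.029 to 0.12 for BMP4.

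In HCT116, libraries with the same replicate number correlated at 0.0921, 0.138 and 0.0436, each best with its own number. Whether these libraries were paired was not tested. There the replicate block gave 2 members, the same as without it, 13 pathway genes and, over all genes, 2098 higher and 1656 lower. Among the genes named, the block also called ACVR2B lower and TGFBR1 and TGFBI higher in PC3 and lost NBL1 in HCT116, and changed no other call beyond those given with the results or the other observations. It was not run for the normoxic level, where numbers lie within a line. Depth limits INHA and INHBA in HCT116, at 0 to 7 counts per library.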

Other observations

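GDF15, a stress-induced ligand of the family, was chosen for mention after its values were seen. It was at 569.6 CPM in normoxic and 718 CPM in hypoxic PC3 replicate 1, while the other PC3 libraries held 83.2 to 175 CPM. In PC3 its log2 FC of 0.51 (SE 0.751, edgeR adjusted p = 0.703) was not called, and with the replicate block it was 0.69 (adjusted p = 0.00347) and called. TGFBI, a TGF-beta target also mentioned after its values were seen, had the largest log2 FC of the pathway genes tested in HCT116, 1.56 (edgeR adjusted p = 0.0625), at 0.0804 to 0.246 CPM in normoxia and 0.147 to 0.756 CPM in hypoxia. DESeq2 and the replicate block, which were run on the same libraries, called it.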
